A study of Rattus norvegicus with 6 samples.

Results

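The Hox genes of the rat were described in RNA from sensory tissue of 6 animals: 3 control rats, and 3 with PDN. PDN stands for painful diabetic neuropathy, a nerve disorder of diabetes that brings pain and loss of feeling. They were taken as every row of the deposited expression table whose gene name is Hox, a cluster letter from a to d and a number, which gave 44 rows with 39 distinct names among 22536 rows. All samples are labelled male, each is 1 library of total RNA, and the tissue is labelled sensory neuron in both groups, while the title of the series speaks of the dorsal root ganglion. How diabetes was induced, what the control rats received, the age of the rats and the spinal level of the ganglia were not stated in any label. No source states whether ganglia of several levels were pooled within a rat, and each library was taken as 1 rat.

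Hox genes encode homeodomain transcription factors that tell cells where along the head to tail axis they lie. They stand in 4 clusters, and within a cluster the genes are numbered from 1 at the head side to 13 at the tail side. Genes of the same number in different clusters are called paralogs. Low numbers are used in the hindbrain and neck, middle numbers at forelimb and thoracic levels, and high numbers at lumbar, sacral and tail levels. Neurons keep part of this code after birth, and in motor and sensory neurons it helps to set which targets they connect to.

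The HoxD cluster held both the most abundant member, Hoxd1, and members listed at 0 in every library, so the stretch before the gene start is shown for 4 of its genes, from the head side to the tail side. The sequences are the 250 bases upstream of the start, on the + strand, from RefSeq's GRCr8 assembly, and capitals mark CG dinucleotides.
Hoxd1 (chr3:80072791-80073040): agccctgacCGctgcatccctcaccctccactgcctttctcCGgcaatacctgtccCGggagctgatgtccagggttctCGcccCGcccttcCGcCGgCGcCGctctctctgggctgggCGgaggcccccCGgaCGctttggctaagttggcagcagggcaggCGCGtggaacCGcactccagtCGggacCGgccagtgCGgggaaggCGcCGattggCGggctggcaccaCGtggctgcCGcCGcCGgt
Hoxd8 (chr3:80014973-80015222): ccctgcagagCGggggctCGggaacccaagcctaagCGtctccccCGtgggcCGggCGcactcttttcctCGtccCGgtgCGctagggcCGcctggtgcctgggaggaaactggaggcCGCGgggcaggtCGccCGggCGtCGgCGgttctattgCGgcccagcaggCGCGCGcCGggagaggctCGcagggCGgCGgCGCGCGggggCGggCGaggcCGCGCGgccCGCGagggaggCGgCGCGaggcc
Hoxd10 (chr3:80001697-80001946): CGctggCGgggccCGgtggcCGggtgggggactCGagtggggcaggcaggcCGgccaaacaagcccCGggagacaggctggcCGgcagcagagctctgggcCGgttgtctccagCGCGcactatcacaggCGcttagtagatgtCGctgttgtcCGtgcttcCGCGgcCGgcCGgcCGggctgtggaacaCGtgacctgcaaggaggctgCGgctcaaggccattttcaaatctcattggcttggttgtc
Hoxd13 (chr3:79977827-79978076): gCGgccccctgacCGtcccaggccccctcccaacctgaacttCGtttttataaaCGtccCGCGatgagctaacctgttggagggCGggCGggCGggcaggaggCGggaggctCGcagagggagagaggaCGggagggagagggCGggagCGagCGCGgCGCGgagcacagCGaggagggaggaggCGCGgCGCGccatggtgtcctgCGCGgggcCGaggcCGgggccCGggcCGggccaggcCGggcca
These windows held 25 (Hoxd1), 38 (Hoxd8), 21 (Hoxd10) and 30 (Hoxd13) CG dinucleotides, against a median of 5 over 33469 windows of that length in the RefSeq table. Dense CG was thus present before Hoxd13, whose RNA was at 0, as well as before Hoxd1. RefSeq's table matched 20 of the 39 Hox names, with 21 windows, and 11 of the 21 held at least 20 CG dinucleotides, as did 16.7% of all windows. The core homeodomain motif TAAT, searched on both strands, occurred in 12 of the 21 windows (57.1%) and in 57.0% of all windows. The joint Hox and PBX motif TGATNNAT, also searched on both strands, occurred in 3 of the 21 (14.3%) and in 7.96% of all. Such a match is a description of letters.

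Hox RNA was present at low levels. Levels are FPKM, fragments scaled to transcript length and library size, so they can be set side by side between genes. Of the 44 rows, 23 had a mean of at least 1 FPKM over the 6 libraries (52.3%), as did 13242 of all rows (58.8%). The 23 rows that entered the test, with 3 or more libraries at 1 FPKM or above, had a median level of 2.38 FPKM, against 9.35 for all 13282 tested genes. Hoxd1, the most abundant, lay at percentile 56.0 of the tested genes. In each library the Hox rows together made up 0.0190% to 0.0223% of all FPKM.

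Among the named Hox rows, the amount of RNA differed by paralog number, with high sums at numbers 1, 8 and 9 and almost none past number 11. Rows inside HoxA without a Hox name, given below, are not in these sums. Nearly all of paralog 1 was Hoxd1, with a mean of 11.4 FPKM. Summed over clusters, the mean over the 6 libraries was 11.5 FPKM for paralog 1, between 3.05 and 4.88 for paralogs 2 to 5, 8.30 for paralog 6 and 4.65 for paralog 7. It was 12.7 for paralog 8, 11.3 for paralog 9, 5.41 for paralog 10 and 0.378 for paralog 11. Paralog 12 was at 0.00595 and paralog 13 at 0. Rows of paralogs 8 and 9 thus held 18.1% and 16.1% of Hox FPKM. Paralogs 10 and 11 together held 8.54%, 6.78% and 5.42% in controls and 11.2%, 8.64% and 8.46% in PDN, and the groups overlapped. Hoxa10, listed at 0 in control 3 and PDN 2, enters this share. In bulk tissue, fewer cells with a gene and less RNA per cell cannot be told apart.

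**Figure D1:**
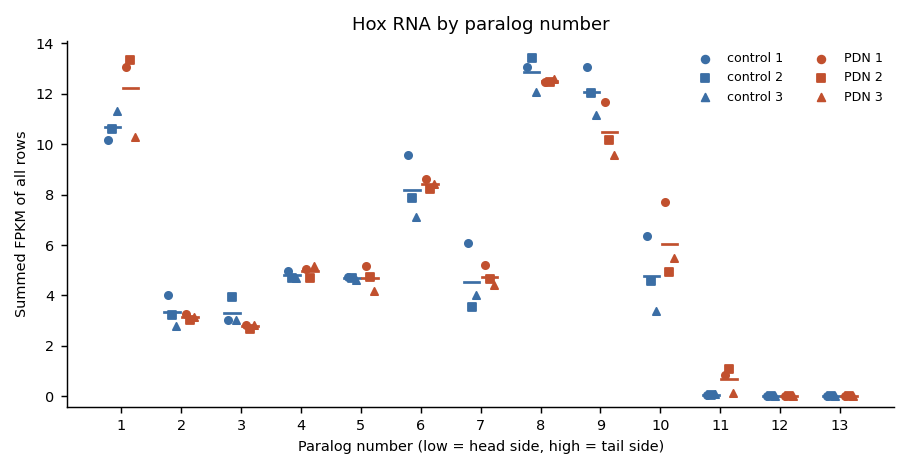
Summed FPKM of all Hox rows (y axis) by paralog number from the head side to the tail side (x axis), 1 point per library with a bar at the mean of 3, controls in blue and PDN in red. The sums are largest at paralogs 1, 8 and 9, and lie at or near 0 for paralogs 12 and 13 in all 6 libraries.

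Among rows with a Hox name, HoxD gave the largest sum. Its 9 rows summed to 24.0 FPKM (34.3% of Hox FPKM), the 10 HoxB rows to 22.0 (31.4%), the 16 HoxA rows to 12.8 (18.3%) and the 9 HoxC rows to 11.1 (15.9%). A further 13 rows inside HoxA carry no Hox name and summed to 30.4 FPKM, with loci that overlap each other and members, so this order holds for the named rows alone. HoxB had the most tested members, 8 of 10, against 6 of 9 in HoxC, 5 of 16 in HoxA and 4 of 9 in HoxD. Every tested member of HoxC had a number between 4 and 10, and those of HoxB lay between 2 and 9.

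At the head side, Hoxd1 (chromosome 3, 61685619 to 61687758 as the file gives it, which names no genome build) was the most abundant member. Hoxd1 has a known role in mouse in the wiring of nociceptive sensory neurons. It was at 10.2, 10.3 and 11.3 FPKM in controls 1, 2 and 3 and at 12.9, 13.3 and 10.3 in PDN 1, 2 and 3. PDN 1 and PDN 2 lay above all controls and PDN 3 lay among them. Hoxb1, which marks a segment of the hindbrain, was at 0 in all libraries. Hoxb2 and Hoxb3, hindbrain and neck genes, led their paralog groups. Hoxb2 was at 3.50, 2.67 and 2.06 FPKM in controls and 2.77, 2.60 and 2.70 in PDN, so the PDN values fell inside the control range. Hoxb3 was at 2.30, 3.16 and 2.33 in controls and 1.97, 2.33 and 2.21 in PDN, and the groups overlapped.

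Members of neck and forelimb levels, paralogs 4 to 7, were led by HoxB. Hoxb4 was at 1.88, 1.91 and 1.63 FPKM in controls and 1.73, 1.71 and 1.76 in PDN. Hoxb5 was at 2.57, 2.08 and 1.72 in controls and 2.35, 2.07 and 1.72 in PDN. Both genes varied within the groups as much as between them. Hoxb6 (chromosome 10, 84147836 to 84149600) was the most abundant HoxB member, at 5.41, 4.74 and 4.15 FPKM in controls and 5.69, 4.02 and 4.75 in PDN. Hoxb7 was at 3.11, 1.93 and 2.30 in controls and 2.24, 2.72 and 2.32 in PDN. Again the groups overlapped in both genes. Hoxa6 was at 2.79, 2.08 and 2.09 FPKM in controls and 2.36, 2.99 and 2.54 in PDN.

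Hoxc4 was the only tested member whose groups did not overlap. It was at 1.54, 1.56 and 1.09 FPKM in controls and 1.07, 1.08 and 1.08 in PDN, so control 3 lay just above the PDN values. Hoxc6, a forelimb level gene with the lowest mean among tested members, was at 1.38, 1.04 and 0.858 in controls and 0.579, 1.21 and 1.15 in PDN. Hoxd4, with the highest mean among members that were not tested, was at 0.553, 0.768 and 0.935 in controls and 1.04, 1.04 and 0.893 in PDN. It reached 1 FPKM in only 2 libraries, PDN 1 and PDN 2. The remaining tested members of these levels overlapped between the groups, with Hoxa5 at 0.858 to 1.26 FPKM over the 6 libraries, Hoxa7 at 1.62 to 2.97 and Hoxc5 at 0.968 to 1.97. Hoxd3, Hoxa3 and the Hoxa4 rows, outside the test, did not pass 0.721 FPKM.

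Thoracic level members, paralogs 8 and 9, were above the filter in every cluster that lists a gene of that number. Hoxd8 (chromosome 3, 61627383 to 61628628), the second most abundant member, was at 6.03, 7.05 and 6.18 FPKM in controls and 6.03, 6.98 and 6.16 in PDN. Hoxb8 was at 4.49, 3.57 and 3.43 in controls and 3.99, 2.75 and 3.99 in PDN. Hoxc8, which helps to set forelimb motor pools, was at 2.53, 2.81 and 2.46 in controls and 2.46, 2.73 and 2.42 in PDN. The 2 groups had nearly the same levels of Hoxd8 and Hoxc8, with means 6.42 ± 0.548 against 6.39 ± 0.515 and 2.60 ± 0.186 against 2.53 ± 0.171 FPKM (SD, n = 3 each, control first).

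Among the paralog 9 genes, Hoxd9 led at 4.52, 3.70 and 3.48 FPKM in controls and 3.39, 4.14 and 3.76 in PDN. Hoxa9 was at 3.20, 4.30 and 3.15 in controls and 3.48, 2.92 and 2.92 in PDN. Control 2 was the highest library for Hoxa9. Hoxc9, which separates thoracic from forelimb identity in motor neurons, was at 2.82, 1.78 and 2.18 FPKM in controls and 1.67, 1.69 and 1.82 in PDN. The groups overlapped only in that PDN 3 lay just above control 2. Hoxb9 was at 2.51, 2.24 and 2.32 in controls, which were close together, and at 3.13, 1.41 and 1.07 in PDN, where PDN 1 lay above all controls and the other PDN libraries below them.

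**Figure D2:**
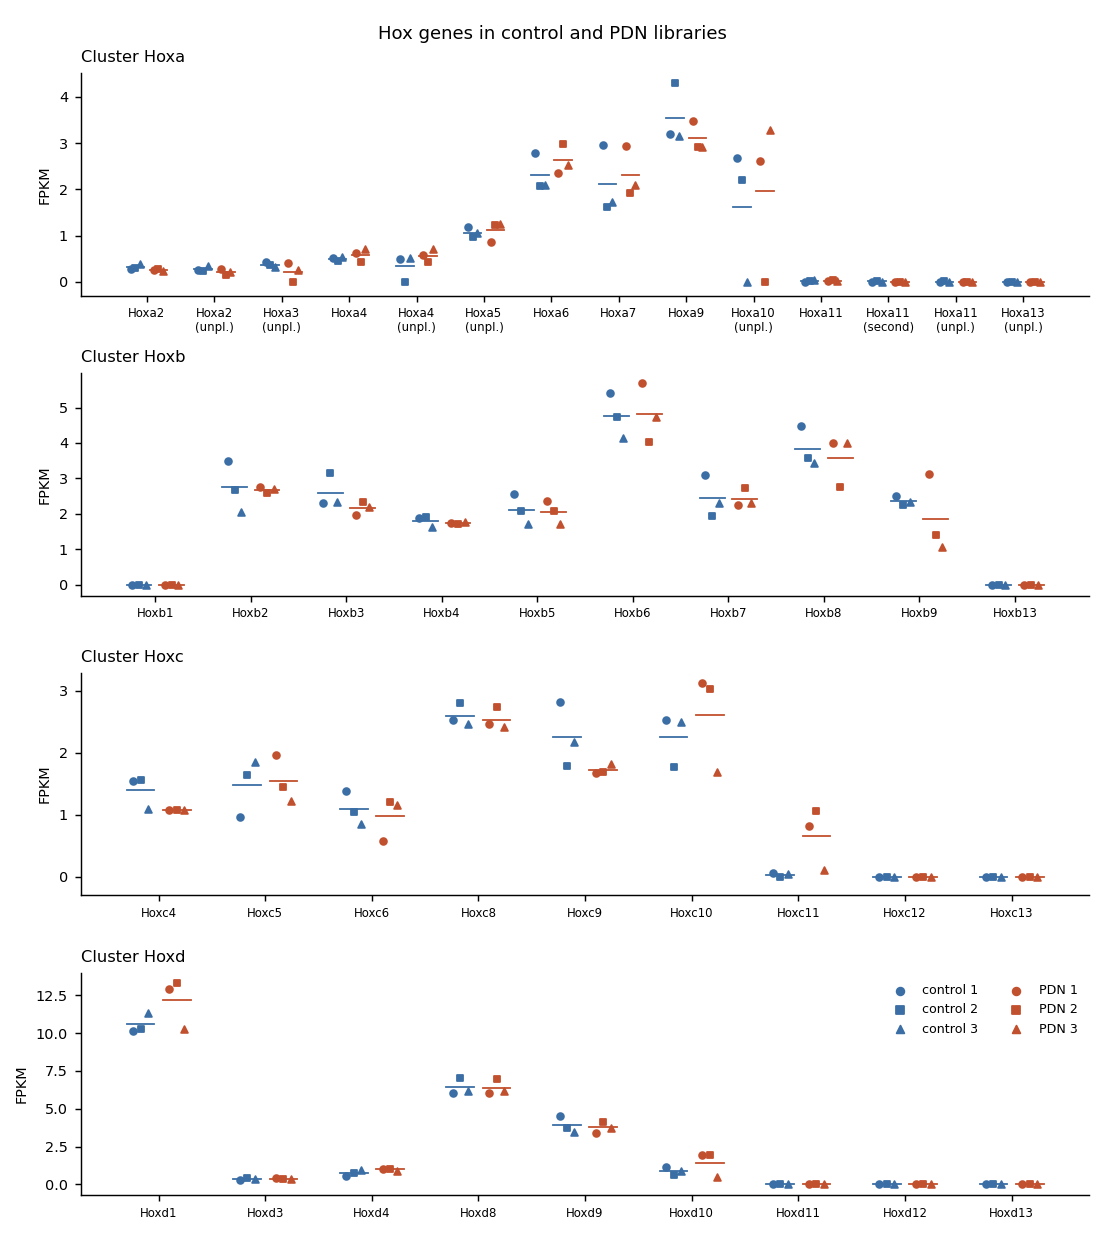
FPKM (linear y axis) of Hox rows by cluster, ordered by paralog number, 1 point per library with a bar at the mean of 3 (controls blue, PDN red; unpl., row on an unplaced scaffold; second, a further row of the same name). Hoxd1 and Hoxd8 have the highest levels, and members of paralogs 12 and 13 lie at or near 0.

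Across all 13282 tested genes, limma called 0 genes at an adjusted p under 0.05 (0% of genes), and therefore 0 of the 23 Hox members. Without adjustment 627 genes (4.72%) had a p under 0.05, and 0 of these were Hox members. The smallest p among members was that of Hoxc9, 0.0983, with an adjusted p in limma of 0.999 and a log2 fold change of -0.25 ± 0.13 (SE). Fold changes are given as PDN minus control and refer to log2(FPKM + 1). Hoxc4 followed with -0.20 ± 0.11, Hoxd1 with 0.18 ± 0.11, Hoxb3 with -0.18 ± 0.12 and Hoxb9 with -0.29 ± 0.24. The sizes depended on single libraries: Hoxc9 was at -0.13 without control 1, Hoxb3 at -0.07 without control 2, and Hoxd1 at 0.11 without PDN 2 and 0.29 without PDN 3. In the second deposited table Hoxc4 was at -0.34 and Hoxb9 at -0.88. The groups did not overlap in 1 tested member, Hoxc4, with PDN below, against 6.24% of tested genes with PDN below. With PDN above it was 0 members, against 3.69% of tested genes.

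Differences of the tested members ran from -0.29 (Hoxb9) to 0.32 (Hoxd10), with 10 higher and 13 lower in PDN. Their median was -0.01, and that of all tested genes was -0.02. The 95% interval of a member's difference from limma, which is not adjusted for the number of genes, reached 0.309 (median) to either side of the estimate. The median SD within a group was 0.176 on the log2(FPKM + 1) scale for Hox members against 0.119 for all tested genes, which were not matched for level. This was not particular to Hox genes. Some other lists lay higher, such as Schwann cell markers at 0.184 and fibroblast markers at 0.205. Others lay lower, such as Hox cofactors at 0.0908.

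**Figure D3:**
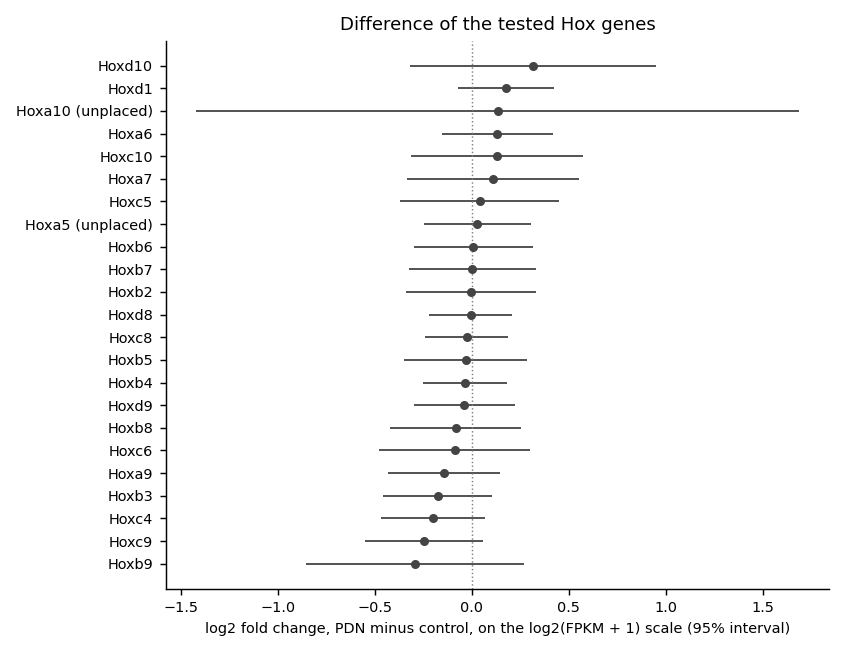
Log2 fold change of the 23 tested Hox rows, PDN minus control, as differences of log2(FPKM + 1) (x axis; points are estimates, lines 95% intervals from limma). Every interval includes 0, and the widest is that of Hoxa10, which was listed at 0 in 1 library of each group.

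The place of the Hox RNA along the axis was also summarised for each library as the mean paralog number weighted by FPKM. Only rows with a Hox name enter it. It was 6.08, 5.91 and 5.76 in controls and 5.97, 5.78 and 5.90 in PDN, a difference of -0.0308 against an SD of 0.161 in controls and 0.0975 in PDN. With members weighted by log2(FPKM + 1) the difference was 0.0821, of the other sign. The summed FPKM of all Hox rows was 75.1, 68.6 and 64.3 in controls and 75.8, 70.0 and 66.2 in PDN. Neither number separated the groups.

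At the tail side of the measured range, PDN libraries differed among themselves. Hoxc10 (chromosome 7, 144577465 to 144582622) and Hoxd10 (chromosome 3, 61604376 to 61617367) are known for their part in lumbar motor neuron identity, and Hoxc11 (chromosome 7, 144565392 to 144567580) lies next to Hoxc10 on the tail side. Hoxd10 and Hoxc11 were chosen after their values were seen. Hoxc10 was at 2.53, 1.77 and 2.49 FPKM in controls and 3.13, 3.03 and 1.69 in PDN. Hoxd10 was at 1.16, 0.605 and 0.912 in controls and 1.93, 1.92 and 0.492 in PDN. Hoxc11 was at 0.0535, 0 and 0.0407 in controls and 0.816, 1.06 and 0.107 in PDN. In all 3 genes PDN 1 and PDN 2 were the highest libraries, and PDN 3 was far below them. This order was not particular to the tail side. PDN 1 and PDN 2 were also highest for Hoxd1, at 12.9 and 13.3 FPKM, and for Hoxd4, at 1.04 each. PDN 3 lay among the controls in both, at 10.3 and 0.893. Hoxd9, whose listed locus holds that of Hoxd10 (12992 shared bases), did not show this order. How fragments of overlapping loci were counted is not stated. Hoxa10, the other paralog 10 member, also chosen after its values were seen, had another order of libraries. Its row, on an unplaced scaffold, was highest in PDN 3 at 3.29 FPKM, with PDN 1 at 2.62. It was at 0 in both PDN 2 and control 3. How fragments were split between copies of HoxA rows is not stated, so its order cannot be set against that of Hoxc10 and Hoxd10.

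**Figure D4:**
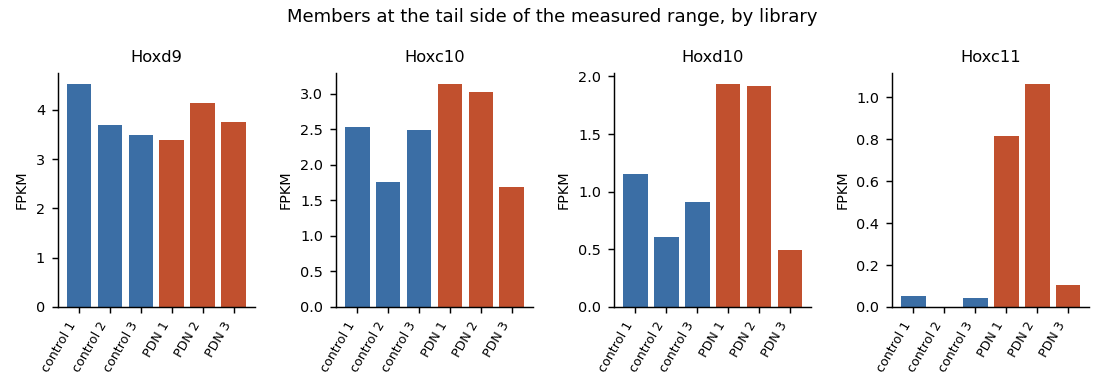
FPKM (linear y axes from 0, each with its own range) of Hoxd9, Hoxc10, Hoxd10 and Hoxc11 in each library, controls blue and PDN red. PDN 1 and PDN 2 are highest in Hoxc10, Hoxd10 and Hoxc11, while PDN 3 is at 1.69, 0.492 and 0.107 FPKM in these genes.

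Hoxc10 had a log2 fold change of 0.13 ± 0.19 and Hoxd10 of 0.32 ± 0.27 (SE), each with an adjusted p in limma of 0.999. Hoxc11 stayed under the filter, since it reached 1 FPKM in 1 library. Its groups did not overlap, as in 3.13% of all rows with PDN above, and an exact permutation test (two-sided) gave p = 0.1, the smallest value that 3 against 3 libraries allow. Fitted without the filter, Hoxc11 had a log2 fold change of 0.64 ± 0.22, an unadjusted p of 0.0259 and an adjusted p in limma of 0.965. With a pseudocount of 0.1 in place of 1, its log2 fold change was 2.22 ± 0.63 (unadjusted p = 0.0102, adjusted p in limma 0.966). With the pseudocount of 1 it was the 1 Hox row with an unadjusted p under 0.05 in that fit, where 5.07% of all genes had one and 0.00533% passed the adjusted threshold. Hoxa2, the other member outside the test whose groups did not overlap, was lower in PDN, at 0.247, 0.273 and 0.240 FPKM against 0.283, 0.309 and 0.377 in controls (chosen after its values were seen). Over all rows, 4.9% had PDN below in this way.

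Levels of skeletal muscle RNA differed between the libraries too. Acta1, an actin of the sarcomere, was at 1.11, 193 and 1.11 FPKM in controls and 13.3, 1.35 and 68.8 in PDN, and Ckm, the muscle creatine kinase, at 0.498, 97.5 and 0.334 and at 5.59, 0.354 and 31.7. The summed FPKM of the 14 muscle markers found, of 18 listed, ran from 100 to 783 in controls and from 133 to 334 in PDN. In control 1, control 3 and PDN 2 it was 138, 100 and 133, though Acta1 and Ckm were at 1.35 or below there. The lower ends of these ranges thus came from other genes of the list and are not taken as muscle RNA. The 2 libraries with the most Acta1, control 2 and PDN 3, were also the lowest of the 6 for Hoxc10 and Hoxd10. With both left out, the log2 fold change was 0.22 for Hoxc10 and 0.53 for Hoxd10 (unadjusted p = 0.0112, adjusted p in limma 0.878), and 0.89 for Hoxc11 without the filter (adjusted p in limma 0.615). Without PDN 3 alone it was 0.33 for Hoxc10, 0.64 for Hoxd10 and 0.91 for Hoxc11, and the adjusted p of Hoxc11 in limma was 0.105. Without PDN 1 these values were 0.02, 0.15 and 0.55, and without PDN 2 they were 0.04, 0.15 and 0.46. Without control 2 the difference of Hoxc10 was 0.02 and that of Hoxd10 was 0.20. Hoxb9 depended on PDN 1 in the same way: without it the difference was -0.59 (unadjusted p = 0.0021, adjusted p in limma 0.891), and without PDN 3 it was -0.09. For Hoxd10 and Hoxc11, control 2 and PDN 3 were the lowest libraries of their groups. For Hoxb9, PDN 1 was the highest of the PDN libraries. The p-values without these libraries therefore add no support for a difference.

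Beyond paralog 11 almost no RNA was seen. Hoxa13, Hoxb13, Hoxc12, Hoxc13 and Hoxd13 were listed at 0 in all 6 libraries, and Hoxd12 was above 0 only in PDN 2, at 0.0357 FPKM. Hoxd11, of paralog 11, and Hoxb1, at the other end, were also at 0 in all libraries. The whole Hoxd11 locus, 1729 bases, lies within those of Hoxd9 and Hoxd10, and how fragments of overlapping loci were counted is not stated. Genes of paralog 13 pattern digits, the hindgut and the genital region in the embryo. The 3 Hoxa11 rows did not pass 0.0401 FPKM. Of all 22536 rows, 3788 were at 0 in all libraries.

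Rows with copies lay in HoxA. Hoxa2, Hoxa4 and Hoxa11 are listed more than once, and 8 HoxA rows lie on an unplaced scaffold. Hoxa10, chosen after its values were seen, had the widest interval of the tested members: its row on that scaffold was at 2.67, 2.21 and 0 FPKM in controls and 2.62, 0 and 3.29 in PDN, so each group had 1 library at 0. Near-identical copies can share fragments, and no source used here says how the authors' counting split them. Within the clusters lay 14 further rows without a Hox name, 13 of them in HoxA. Of these, LOC100911668 (chromosome 4, 82200145 to 82295470) had the highest mean, 10.1 FPKM, and its locus overlapped those of Hoxa6, Hoxa7, Hoxa9 and a Hoxa11 row. Loci of members also overlapped each other in 13 pairs among 14 members. The Hoxc5 locus spanned 190036 bases and held Hoxc4, Hoxc6, Hoxc8 and Hoxc9, and the Hoxa6 locus spanned 90010 bases. The libraries were made strand-specific, but no source used here says whether counting used the strand.

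RNA of the genes for Hox cofactors was present in all libraries. PBX, MEIS and PKNOX proteins bind DNA together with Hox proteins and sharpen their choice of sites. All 12 cofactor genes listed were tested, and they include genes for HIPK kinases and a PBX-interacting protein beside these families. Of the 12, 6 were higher and 6 lower in PDN, 0 were called, and the median log2 fold change was -0.0013. Pbx4 was at 0.960, 1.09 and 1.20 FPKM in controls and 1.54, 1.39 and 1.32 in PDN, a log2 fold change of 0.21 ± 0.10 (SE), and Meis3 was at 7.04, 6.40 and 5.91 against 6.98, 7.25 and 6.85. Their adjusted p-values in limma were 0.999.

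Polycomb complexes keep silent Hox genes off through H3K27 methylation, and Trithorax proteins keep active ones on. Of 28 tested Polycomb genes, 12 were higher and 16 lower, 0 were called, and the median was -0.01. Cbx8, a chromodomain subunit, was at 3.71, 3.77 and 3.46 FPKM in controls and 2.61, 3.22 and 3.26 in PDN (log2 fold change -0.21 ± 0.10), and Cbx2 was at 1.01, 0.889 and 1.04 against 1.13, 1.22 and 1.24 (0.15 ± 0.10). The PDN values of Cbx8 all lay below the controls and those of Cbx2 above them, and neither passed the threshold, with adjusted p-values in limma of 0.999. Both were named for their small p, so this separation adds nothing to it. Of the 28, PDN lay wholly above in 3 and below in 2, against 3.69% and 6.24% of all tested genes. Of 18 tested genes in the list for Trithorax and H3K27 demethylases, 6 were higher and 12 lower, 0 were called, and the median was -0.03. That list also holds genes with other roles, H3K4 demethylases among them, so these counts do not describe a single role. Kdm5c, an H3K4 demethylase, was at 27.3, 28.4 and 27.8 FPKM in controls and 25.7, 25.8 and 26.7 in PDN, and Psip1, a chromatin reader, at 21.6, 21.8 and 20.8 against 22.6, 23.8 and 22.1.

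Retinoic acid sets the head side borders of Hox expression in the embryo. Of 29 genes listed for its synthesis, sensing and removal and for other axial inputs, 20 were tested, 7 were higher and 13 lower, 0 were called, and the median was -0.09. Aldh1a3, a retinaldehyde dehydrogenase that makes retinoic acid, was at 3.48, 5.75 and 7.88 FPKM in controls and 2.15, 2.75 and 2.77 in PDN. Dhrs3, which turns retinaldehyde back to retinol, was at 6.86, 6.40 and 5.58 in controls and 4.15, 4.44 and 5.46 in PDN. In both genes all PDN libraries lay below all controls. The log2 fold change was -0.86 ± 0.23 for Aldh1a3 (unadjusted p = 0.00697, adjusted p in limma 0.909) and -0.36 ± 0.11 for Dhrs3 (unadjusted p = 0.0158, adjusted p in limma 0.999). These were the 2 genes of the list with an unadjusted p under 0.05. They were named for their small p, so the separation of their groups adds nothing to it.

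**Figure D5:**
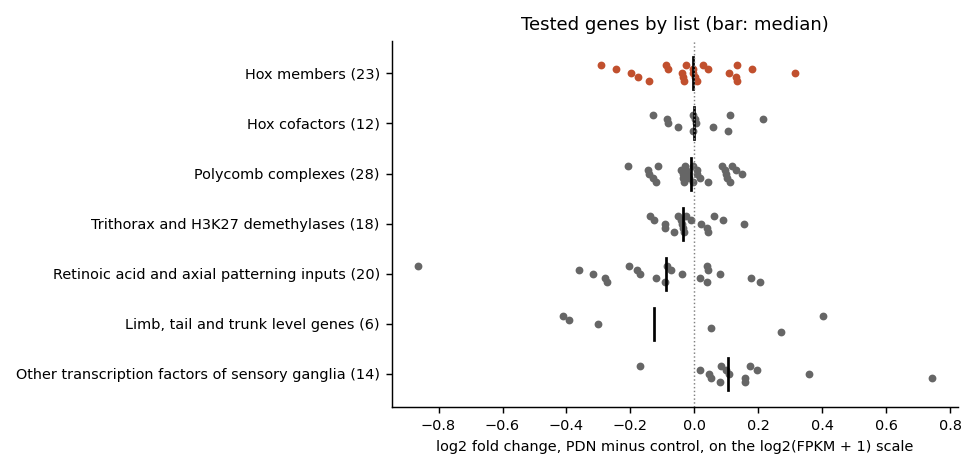
Log2 fold change (x axis; PDN minus control, as differences of log2(FPKM + 1)) of each tested gene in the Hox set and in 6 lists of regulators and axial genes, with the number tested in brackets and a bar at each median. The Hox rows lie between -0.29 and 0.32, and the lowest point is Aldh1a3 at -0.86.

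Genes listed for head and brain levels were nearly absent. Of 21 found, such as Otx2, 0 passed the filter, 5 were at 0 in all libraries, and the highest mean was that of Irx2, 0.258 FPKM. Their sum ran from 0.679 to 0.870 FPKM in controls and from 0.621 to 1.05 in PDN.

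Among 6 tested limb, tail and trunk genes, 3 were higher and 3 lower, and 0 were called. Isl2, a LIM homeodomain factor of motor and sensory neurons, was at 35.5, 32.8 and 35.0 FPKM in controls and 46.3, 39.7 and 39.5 in PDN (log2 fold change 0.27 ± 0.08, unadjusted p = 0.0113, adjusted p in limma 0.999). Tbx18, a T-box factor of mesenchyme, was at 1.08, 1.56 and 1.28 against 0.427, 0.976 and 0.832 (-0.41 ± 0.15). Its difference was -0.27 without PDN 1, -0.79 with a pseudocount of 0.1 and -0.87 in the second deposited table. Markers of connective tissue and vessel walls were also measured. All 7 tested pericyte and smooth muscle markers had lower estimates in PDN, with a summed FPKM of 71.4 to 85.9 in controls and 50.5 to 75.5 in PDN, as had 8 of 10 fibroblast markers, with sums of 947 to 1042 and 932 to 1010. Lower estimates were also seen in 6 of 7 endothelial, 6 of 8 macrophage and 7 of 10 satellite glia markers, beside 7524 of all 13282 tested genes. None of the markers found for these cells was at 0 in all libraries, 0 were called, and their part in the values of Tbx18, Aldh1a3 and Dhrs3 was not tested. Of 14 tested rows for other transcription factors of sensory ganglia, 13 were higher and 1 lower in PDN, 0 were called, and the median was 0.10. Of the 19 sensory neuron markers, 10 were higher and 9 lower, with a median of 0.0007, and of all tested genes 5758 were higher and 7524 lower. Isl1, which specifies sensory neurons, was at 21.1, 18.3 and 20.1 FPKM in controls and 21.9, 23.7 and 21.9 in PDN, and Pou4f2 was at 3.71, 2.50 and 3.05 against 4.91, 4.61 and 3.26. Neither gene had an unadjusted p under 0.05 in limma (0.0533 for Isl1 and 0.0574 for Pou4f2).

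The tissue label was compared with marker genes. All 19 sensory neuron markers passed the filter, and their summed FPKM was 7362 to 8287 in controls and 7154 to 8072 in PDN, while all 12 Schwann cell and all 10 satellite glia markers were present as well, so RNA of glial genes was present beside that of neurons. Of 14 spinal cord markers, Mnx1, Olig2, Pax2, Lhx1 and Lhx5 were at 0 everywhere, and the sum was 3.04 to 4.31 FPKM. Of 8 sympathetic neuron markers, 2 were at 0 everywhere, Hand2 among them, and the sum was 0.647 to 1.43. In single libraries, 13093 to 13286 genes reached 1 FPKM. If the constant that links the 2 deposited tables reflects library size, a library held between 51855000 and 62785000 fragments. That depth is inferred, since the second table was treated as a score.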

How the data were processed

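RNA of 6 male rats, 3 control and 3 PDN, was extracted with Trizol and made into strand-specific libraries, per the labels' protocols. FPKM values were deposited by the authors. Aligner, quantifier, annotation and genome build: not given in the sources used here. A further deposited table, whose name speaks of read counts, was treated as a score: 54.5% to 54.9% of its values over 1000 equal the FPKM times the genomic span times 1 constant per library (relative tolerance 0.001). No counting intervals were computed.

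Genes that reached an FPKM of 1 in 3 or more libraries were fitted as log2(FPKM + 1) with limma 3.58.1 (R 4.3.3), with an intensity trend and group as the only term; the log2 values were computed here from the authors' FPKM. This scale understates changes of low genes. P-values were adjusted by Benjamini-Hochberg over the 13282 tested genes, and 0.05 was the threshold. The fit was tested on simulated data. Each library was taken as 1 rat, since the design text speaks of 3 per group. Same-numbered libraries were not paired: their deviations from the group means correlated at 0.171, -0.12 and -0.0865.

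Members and lists were chosen with earlier results of these data known. Named were the 2 most abundant members of each cluster, the most abundant of each paralog number with a mean of at least 1, the 5 tested members with the smallest p, the members next to the filter, and the 2 tested genes of each list with the smallest p. Of cell type lists, those for sensory neurons, Schwann cells, satellite glia, fibroblasts, pericytes and muscle are given in the report. So are those for endothelium, macrophages, spinal cord and sympathetic neurons, and no others. Alternatives were the pseudocount, the filter, scaling, empirical Bayes settings, array weights, a replicate block, the second table, and leaving out libraries. All sample columns were used. A few listed genes, 1 member among them, are not reported here by name and not drawn.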

Additional observations from a re-analysis of the deposited data

How the results depend on the processing

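The count of Hox members called was 0 under every alternative run, and so was that of regulator and axial genes. With the replicate number as a block, limma called 0 genes, and the smallest adjusted p of a Hox member was 0.780, so the block changed no call; the numbers do not pair the libraries. The count of all genes called was 0 at first, 1 without the filter and 1 with robust empirical Bayes (AABR07012079.1 in both, chosen after its value was seen), 3 in the second table (Myom3, Vps33a and Sapcd1, likewise chosen), 9 with control 2 and PDN 3 both left out, and 0 to 6 with single libraries left out: 6 without PDN 3, 4 without PDN 1, 3 without control 1, 2 without control 3 and 0 without either library numbered 2. No Hox member was among them. The number of Hox members at a mean of 1 FPKM or more, 23, became 15 at a level of 2. The Hox median became 0.0862 with a filter at 5 FPKM, which left 2 members.

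Small differences changed sign. Of 33 named genes, 11 did so in at least 1 alternative, all of them Hox members. With control 2 and PDN 3 left out, the log2 fold change was 0.0053 for Hoxa9, 0.039 for Hoxc8, 0.075 for Hoxd8, 0.041 for Hoxb5, -0.084 for Hoxb7 and -0.0094 for Hoxa10. Under median-of-ratios scaling Hoxd8 and Hoxb2 were at 0.0123 and 0.011, under upper-quartile scaling at 0.0094 and 0.0088, and in the second table at 0.0032 and 0.0109, where Hoxc6 was at 0.90. Hoxb2 was at 0.0015 with a pseudocount of 0.1 and 0.054 with array weights, and Hoxd9 at 0.0020 with array weights. Leaving out each library in turn gave -0.0969 to 0.11 for Hoxb6, -0.152 to 0.0545 for Hoxb8, -0.0658 to 0.0152 for Hoxc8, -0.0626 to 0.0538 for Hoxd8, -0.141 to 0.137 for Hoxb2, -0.128 to 0.0694 for Hoxb5, -0.106 to 0.136 for Hoxb7, -0.0994 to 0.0508 for Hoxd9, -0.176 to 0.0661 for Hoxc6 and -0.46 to 0.793 for Hoxa10. The cause of these sign changes was not tested. Among the values of named genes that moved by over 1.5 times were 0.358 for Pbx4, 0.263 for Cbx2, -0.46 for Hoxb9 and -0.329 for Hoxc4 with a pseudocount of 0.1, 0.296 for Cbx2 in the second table, and -0.132 for Cbx8 without PDN 1. The difference in mean paralog number ran from -0.108 to 0.0526 over the same fits. Counting error per gene could not be computed.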
